A study of Homo sapiens with 11 samples.

Results

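Deep intron windows are stretches labelled as intron, about 100 bases long and with no splice-site class. In them crosslinked RNA was called enriched in enhanced crosslinking and immunoprecipitation (eCLIP) of RPS19. They were taken as every listed window whose top annotation class is intron with no splice-site class, in 3 deposited lists, 1 for each form of the protein. They numbered 3033 of 15402 listed windows for WT, 4489 of 86567 for R62W and 3609 of 93331 for R101H. Across the 3 lists, 7879 distinct windows of 122708 belonged to the class. In each of them intron was the sole feature type annotated. Distance to the nearest exon was not measured, since no genome sequence or exon map was used. The class therefore rests on the deposited label. Some members lie around a RefSeq start of their own host gene, such as NR2F2 at 96332389, and may be exon in another transcript.

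The protein was a V5-tagged RPS19 expressed from a plasmid that HEK293T cells had received. HEK293T is an established line of human embryonic kidney origin in which the large T antigen of SV40 is present. The 11 libraries fall into 4 groups, namely 3 of WT RPS19, 3 of the R62W substitution, 2 of the R101H substitution and 3 size-matched inputs from cells that received no plasmid. R62W and R101H are variants of Diamond-Blackfan anemia, and every precipitated sample also held the cells' own RPS19, which carries no tag. Whether replicates were grown as separate cultures is not in the labels. The limma p-values below therefore reflect spread among these libraries, some or all of which may be technical. Only values of passing replicates enter the fits, so this spread leaves out replicates that did not pass.

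RPS19 is a protein of the small ribosomal subunit, and it is needed in the nucleolus to mature the precursor of the small-subunit RNA before it serves in translation. Introns are removed from nuclear transcripts before export, so that a cytoplasmic ribosome meets them only in retained or misprocessed RNA. Intron RNA is also a common source of nonspecific or nuclear signal in crosslinking assays, and it is scarce in input, where a low count makes an odds ratio large and uncertain.

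Sequence was available for the windows that lie inside the stretch from 250 bases before to 50 bases after a RefSeq gene start. Of the 7879 windows, 112 overlapped such a stretch and 65 of those that could be read lay wholly inside one. The share of G and C read from RefSeq equalled the deposited share in 65 of 65, so the coordinates and the GRCh38.p14 sequence belonged together. The following windows are read 5′ to 3′ on the strand of the host gene. They are examples whose hosts are among those with the most deep intron windows, or which were listed with both substitutions. Other windows that meet these rules are not shown, such as AGAP3 at 151088869 and NFIA at 61082461, which hold no GGGG. Each window shown holds GGGG, so the examples do not stand for the 65. Capitals mark runs of at least 4 G or at least 4 C.
HDAC5, chr17:44115695-44115794, minus strand: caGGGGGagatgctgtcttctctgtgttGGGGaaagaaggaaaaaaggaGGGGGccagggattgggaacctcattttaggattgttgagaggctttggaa
HDAC5, chr17:44115795-44115894, minus strand: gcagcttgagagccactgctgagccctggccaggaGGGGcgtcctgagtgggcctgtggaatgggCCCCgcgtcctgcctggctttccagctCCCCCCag
EPHA2, chr1:16155148-16155247, minus strand: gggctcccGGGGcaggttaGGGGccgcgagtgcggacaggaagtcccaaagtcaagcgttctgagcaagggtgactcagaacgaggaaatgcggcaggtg
PLXNB2, chr22:50301764-50301863, minus strand: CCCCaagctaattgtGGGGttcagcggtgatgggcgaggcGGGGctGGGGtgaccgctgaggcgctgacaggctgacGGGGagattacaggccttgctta
AGAP3, chr7:151088769-151088868, plus strand: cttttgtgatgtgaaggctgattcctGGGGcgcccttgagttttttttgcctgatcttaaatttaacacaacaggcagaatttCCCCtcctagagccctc
CDYL, chr6:4776306-4776403, plus strand: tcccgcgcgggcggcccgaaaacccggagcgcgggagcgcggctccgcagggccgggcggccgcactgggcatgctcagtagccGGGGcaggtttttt

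The values below are log2 odds ratios of immunoprecipitated (IP) over input counts, averaged by the authors over the replicates that passed. The 2 neighbouring HDAC5 windows stood at 2.83 and 3.95 for WT and at 2.79 and 3.33 for R62W, and neither was listed for R101H. The EPHA2 window stood at 4.52 for WT alone. The PLXNB2 window stood at 3.65 for WT and 3.46 for R101H, and the AGAP3 window at 3.55 for WT and 3.31 for R62W. The CDYL window was listed with both substitutions, at 3.99 for R62W and 3.77 for R101H, and not for WT. The word GGGG occurred on the sense strand in 46 of the 65 windows (70.8%) and CCCC in 26 (40.0%). Among 105348 stretches of 100 bases cut from all 35116 RefSeq promoters, 43.7% held GGGG and 41.6% held CCCC on the gene's strand. Windows lie on the host's strand and not always on that of the promoter's gene, so both words were counted on both strands, each being the other's reverse complement. A match is a description of letters, and these 65 windows are near gene starts and not a sample of the class.

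Deep introns took a larger share of the WT list than of the substitution lists. Deep intron windows made up 19.7% of the WT list (exact 95% Clopper-Pearson interval 19.1 to 20.3%), 5.19% of the R62W list (5.04 to 5.34%) and 3.87% of the R101H list (3.74 to 3.99%). The intervals cover counting error only, and 1 list per group leaves no replicate check of a share. Relative to WT, the R62W list held 1.48 times as many deep intron windows and the R101H list 1.19 times as many. These ratios hold at the lists' own lengths. In lists cut to the WT length by q-value the numbers were 3033 for WT, 625 for R62W and 373 for R101H, and counting each gene by its highest window gave 370, 483 and 369. At the lists' own lengths the ratios were 3.98 and 3.55 for intron windows near a splice site, 6.10 and 7.45 for 3′ UTR windows and 8.35 and 9.10 for coding windows. The order deep intron, splice-near intron, 3′ UTR and coding was the same for both substitutions. Of all IP counts in listed windows, deep introns took 5.99% for WT (144578 counts), 3.32% for R62W (239953) and 2.20% for R101H (159191). A single window of SNX6 held 24980 of these counts for R62W, against 1436 for WT and 937 for R101H.

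**Figure D1:**
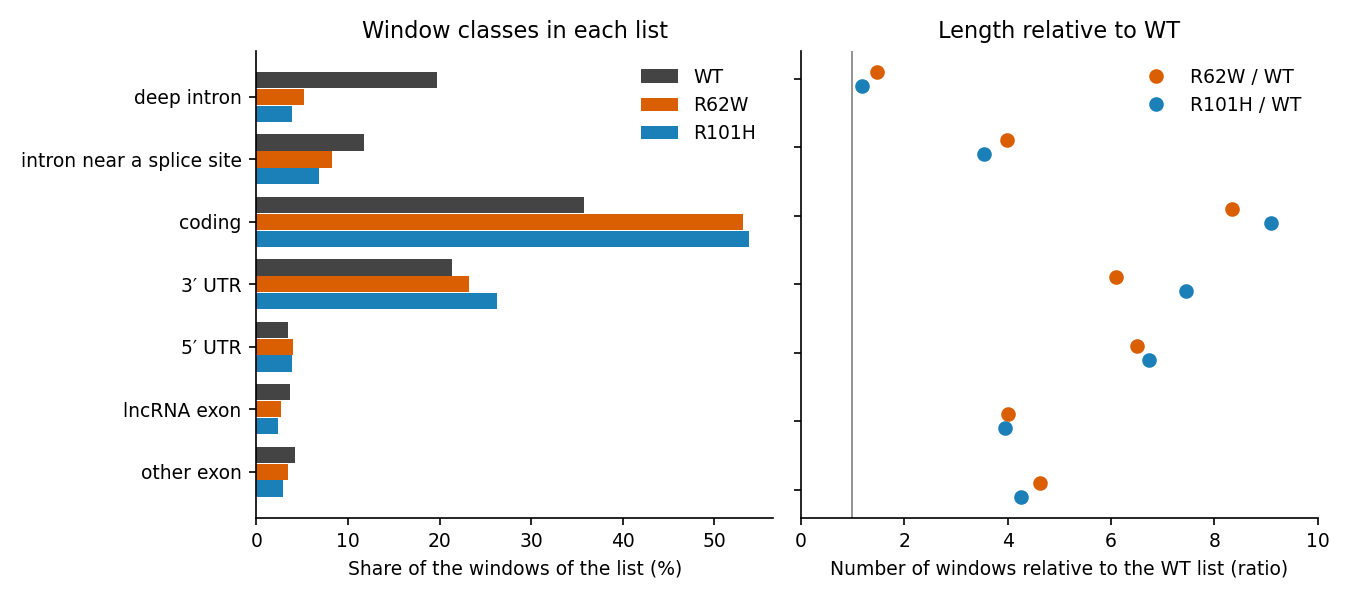
Left, share of each list (%) taken by each annotation class of window, with bars for WT, R62W and R101H; right, number of windows of each class in a substitution list divided by the number in the WT list. Deep introns fall from 19.7% of the WT list to 5.19% and 3.87%, and their length ratios, 1.48 and 1.19, are the smallest of the classes drawn.

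The windows came from 538 genes for WT, 1164 for R62W and 1043 for R101H, and from 729, 1614 and 1434 introns. The WT list was the more concentrated of the 3. Its 10 leading genes held 27.6% of its deep intron windows, against 12.6% for R62W and 14.8% for R101H. Genes with a single such window numbered 270, 567 and 537. Protein-coding hosts carried 89.1%, 90.4% and 88.9% of the windows. Of the protein-coding hosts, 231 of 503 (45.9%) also had a coding window in the WT list, against 903 of 1073 (84.2%) for R62W and 855 of 956 (89.4%) for R101H. Among protein-coding genes with windows of the other classes the shares were 62.5%, 84.4% and 84.9%. The share among deep intron hosts was thus below this for WT, close to it for R62W and above it for R101H. The genes with windows of the other classes can also be deep intron hosts. Their windows include the coding windows that are counted, which raises their shares.

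The median level in deep introns was higher in the WT list than in the other 2. The median log2 odds ratio was 2.88 for WT (quartiles 2.31 and 3.65), 2.31 for R62W (1.88 and 3.04) and 2.33 for R101H (1.84 and 3.13). The other windows of the same lists had medians of 1.88, 1.88 and 1.99. Where 3 replicates passed, the highest and lowest of them differed by a median of 1.32 in WT and 1.16 in R62W deep introns, and by 0.77 and 0.79 in the other windows. The 2 R101H replicates differed by a median of 0.59 in deep introns and 0.52 elsewhere. These are ranges of 2 values, so they cannot be set beside the ranges of 3. With 2 passing replicates, the deep intron median was 0.60 for WT (2158 windows) and 0.54 for R62W (3051 windows), close to R101H. The other windows with 2 passing replicates stood at 0.39 for WT and 0.44 for R62W, below R101H. Here the WT and R62W values leave out the replicate that did not pass. Of the WT windows at a log2 odds ratio of at least 4, 510 of 868 (58.8%) were deep intron, against 325 of 1238 (26.3%) for R62W and 316 of 2301 (13.7%) for R101H. At a log2 odds ratio of at least 5 the order among deep introns turned, with 42 WT windows (1.38%), 79 R62W windows (1.76%) and 98 R101H windows (2.72%), and deep introns made up 54.5%, 51.3% and 30.1% of all windows at that level. These deep intron windows came from 30, 44 and 20 genes, so by genes R101H was the lowest. Of them, 28, 21 and 30 had an input count of 0. Listing selects high values, so these levels are a description of what was listed.

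**Figure D2:**
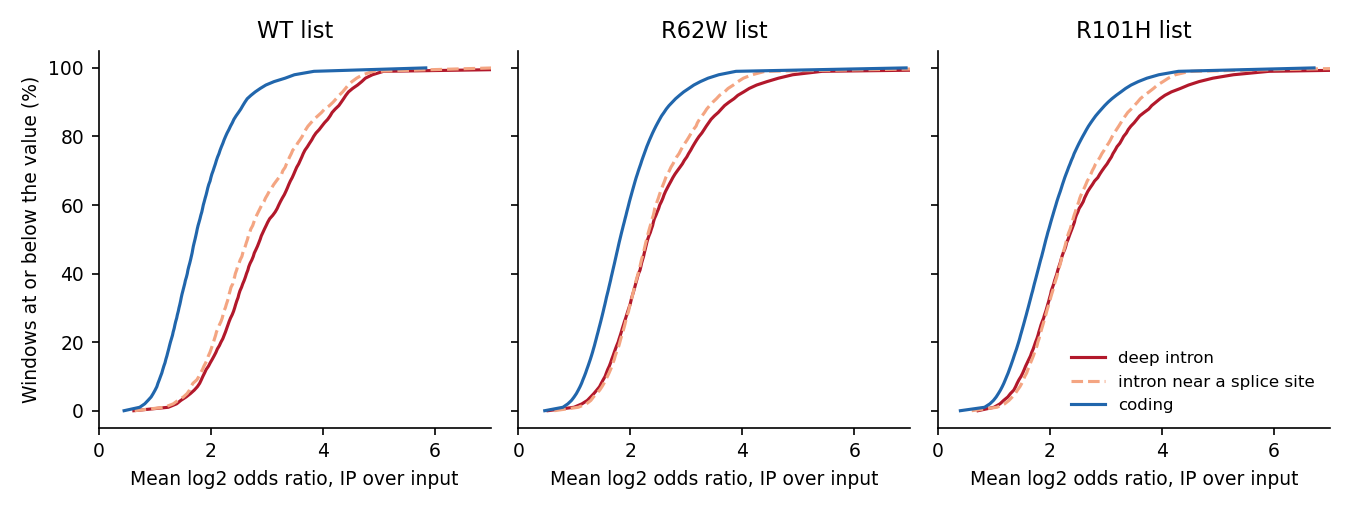
Cumulative distribution of the mean log2 odds ratio of IP over input in each list, for deep intron windows, intron windows near a splice site and coding windows; the vertical axis is the percent of windows at or below a value. The deep intron curve lies to the right of the coding curve in each panel, with medians of 2.88, 2.31 and 2.33.

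Low input counts went with these high levels. The pooled input count of a deep intron window had a median of 4 for WT and 5 for both R62W and R101H, against 14, 13 and 11 in other windows. An input count of 0 was found in 308 WT windows (10.2%), 229 R62W windows (5.10%) and 222 R101H windows (6.15%), against 1.71%, 0.769% and 0.932% of the other windows. Median IP counts were 36, 30 and 30. Windows with 0 to 4 input counts were the largest group of deep introns in each list, and there the deep intron median was the higher, at 3.49 against 3.12 in other windows for WT, 3.02 against 2.81 for R62W and 3.07 against 2.96 for R101H. With 10 to 19 input counts the medians were 1.97 and 1.82 for WT, 1.797 and 1.796 for R62W, and 1.69 and 1.83 for R101H, where deep introns were the lower.

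Support from replicates and q-values was partial. A window needed at least 2 passing replicates to be listed, and 875 WT deep intron windows (28.8%) and 1438 R62W windows (32.0%) passed in all 3. The other windows did so in 21.4% of WT and 45.2% of R62W. R101H had 2 replicates, so every listed window passed in both. The highest q-value over replicates was at most 0.05 in 604 WT windows (19.9%), 932 R62W windows (20.8%) and 1158 R101H windows (32.1%). In the other windows that share was 19.3%, 26.4% and 46.8%, so that deep introns were close to the rest for WT and lower for R62W and R101H.

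Deep intron windows were slightly richer in G and C than the other windows. Median shares of G and C were 53% for WT, 52.0% for R62W and 51.5% for R101H, against 49.3%, 49.5% and 49.0% elsewhere. Windows with no listed deep intron neighbour made up 60.3%, 64.6% and 65.2%. Runs of at least 5 adjoining windows numbered 48, 46 and 29, and the longest held 18, 19 and 17 windows. Chromosomes 19 and 22, both dense in genes, held 21.4% and 14.0% of the WT windows but 10.7% and 3.95% of the other WT windows, while chromosome 11 held 1.22% against 5.999%. Of the 424 WT windows on chromosome 22, PI4KAP2 held 83, PI4KAP1 80, CSNK1E 68, HIC2 57 and PLXNB2 55.

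Deep intron windows lay earlier in their genes than coding windows, most so for WT. Position was taken from RefSeq gene bounds, which could be matched for 93.7% of WT, 90.7% of R62W and 90.1% of R101H deep intron windows. The median window lay 36.3% of the way along its gene for WT, 48.6% for R62W and 57.2% for R101H, against 70.2%, 68.0% and 69.6% for coding windows. Intron windows near a splice site were also early, at 52.4%, 55.8% and 58.5%, so that the 2 intron classes were close for R101H. The first 20% of the gene held 31.5%, 23.6% and 17.6% of deep intron windows and 12.5%, 11.4% and 10.2% of the other windows, with 25.01%, 19.6% and 17.0% for splice-near intron windows. Within 5000 bases of the gene start the splice-near share for WT, 38.0%, was above the 32.6% of deep introns. The order of the 3 lists was kept when each gene counted once by its median window. The medians over genes were then 34.4% for 495 WT genes, 46.6% for 1071 R62W genes and 53.03% for 950 R101H genes.

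By share of the WT list, deep intron windows recurred less often than coding windows. Of the WT deep intron windows, 1192 (39.3%) were also in the R62W list, where 79.6% of all WT windows were. The R101H list held 761 of them (25.1%), against 72% of all WT windows. Coding windows of WT recurred at 93.9% and 89.9%, and splice-near intron windows, in between, at 64.6% and 48.1%. By share of the longer lists the order was the opposite. The shared windows were 26.6% of the R62W and 21.1% of the R101H deep intron windows, against 14.2% and 11.9% of all windows in those lists. The substitution lists shared 1930 deep intron windows, 43.0% of R62W and 53.5% of R101H, where the shares over all windows were 69.2% and 64.2%. Splice-near intron windows were alike here, at 45.01% and 50.5%. The lists differ in length, and each was cut at its own threshold, so a window missing from one of them was not measured as 0.

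A total of 631 windows in 238 genes stood in all 3 lists, 8.01% of the 7879 where the share over all listed windows was 8.66%. A further 1711 windows in 305 genes stood in the WT list alone, 21.7% against 2.19% of all listed windows. The WT-alone windows had a median log2 odds ratio of 2.96 on a median of 32 IP and 3 input counts, and 13.7% had a highest q-value of at most 0.05. Windows in all 3 lists had a WT median of 2.76 on 51 IP and 6 input counts, and 33.6% reached that q-value. Both substitutions without WT listed 1299 windows in 474 genes, 16.5% against 40.1% of all listed windows. Of 1536 genes with a deep intron window, 341 (22.2%) had one in all 3 lists, 69 (4.49%) in WT alone and 399 (26.0%) in both substitution lists without WT. By windows of any class the shares of the 8692 listed genes were 36.5%, 0.196% and 46.3%. Of the 69 genes, 64 had some other window in a substitution list.

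In leading WT hosts many windows were spread over 1 intron. GSE1, which encodes a component of histone deacetylase complexes, had 153 deep intron windows for WT, 27 for R62W and 16 for R101H. In GSE1, 131 of the WT windows were in no other list, while its coding windows numbered 2, 30 and 30. LMNA, which encodes the nuclear lamins A and C, had 92, 25 and 1, with 4, 3 and 2 coding windows. Its WT windows had a median log2 odds ratio of 4.22 on a median of 1 input count, and 91 of them lay in 1 intron between 156115775 and 156130116 on chromosome 1. In GSE1, 100 of the WT windows lay in 1 intron, spread over 19515 bases, and the 91 of LMNA were spread over 14342 bases. Windows in these introns were thus many for WT, with gaps between them, and fewer in the other lists. Coding windows were few in LMNA for each form and most numerous with the substitutions in GSE1.

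Other leading WT hosts also had fewer windows in the substitution lists. Like GSE1 and LMNA, they were named for their WT counts, which favours this direction, apart from DNM2 and SKI. HDAC5, a class IIa histone deacetylase whose sequences are printed above, had 70, 15 and 6 deep intron windows. CSNK1E, casein kinase 1 epsilon, had 68, 35 and 11, and REXO1, an RNA exonuclease family member, had 67, 37 and 13. HIC2, a zinc finger repressor, had 57, 26 and 5. PLXNB2, a semaphorin receptor, had 55, 16 and 11 deep intron windows, while its coding windows numbered 16, 56 and 54. EPHA2, an ephrin receptor, had 41, 3 and 0, and DNM2, the dynamin that cuts endocytic vesicles from the membrane, had 37, 11 and 2. SKI, a repressor of TGF-beta signalling, was even between WT and R62W, with 53, 50 and 21 windows in 1 intron. The pseudogenes PI4KAP1 (80, 44 and 25) and PI4KAP2 (83, 26 and 9) are near copies of the lipid kinase gene PI4KA, and reads could have been split among these copies, so their counts are uncertain.

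**Figure D3:**
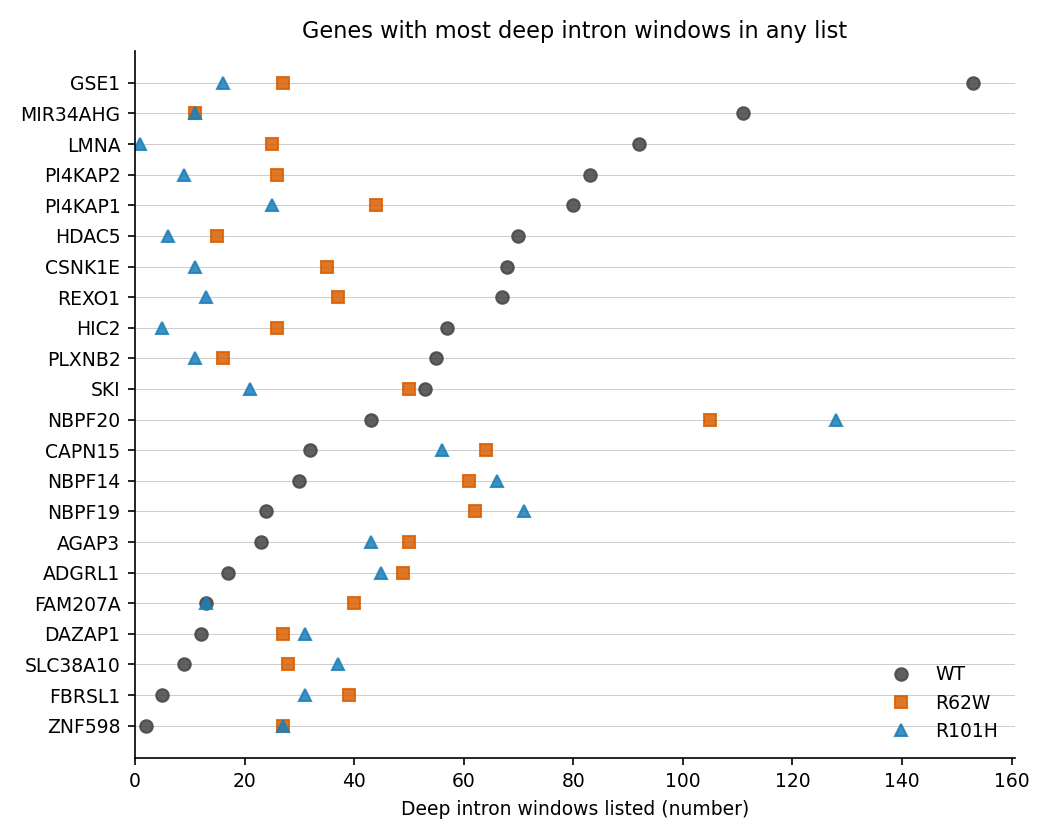
Number of deep intron windows in the WT, R62W and R101H lists for the genes that were among the 10 leading hosts of any list, ordered by the WT number. GSE1 leads for WT at 153 against 27 and 16, and NBPF20 leads for the substitutions at 105 and 128 against 43.

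Another set of hosts had more windows in the substitution lists. They were named for their counts in those lists, so this direction follows largely from the choice. CAPN15, a calpain family member, had 32 deep intron windows for WT, 64 for R62W and 56 for R101H. ADGRL1, the adhesion receptor latrophilin 1, had 17, 49 and 45, and AGAP3, a GTPase-activating protein for Arf, had 23, 50 and 43. SLC38A10, an amino acid transporter family member, had 9, 28 and 37. ZNF598, the ubiquitin ligase that marks collided ribosomes, had 2, 27 and 27. DOT1L, the methyltransferase of histone H3 lysine 79, had 10, 29 and 25. FBRSL1 had 5, 39 and 31, and CTBP1, a transcriptional corepressor, had 3, 24 and 22. The coding windows of these genes were more numerous too, from 16 to 55 and 54 in ADGRL1, from 5 to 36 and 36 in AGAP3 and from 1 to 12 and 13 in ZNF598.

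A few hosts differed between the substitutions or were duplicated genes. FAM207A had 40 windows for R62W but 13 for WT and 13 for R101H. DAZAP1, an RNA-binding protein gene, had 12, 27 and 31. The NBPF genes, a segmentally duplicated family on chromosome 1, led the R101H list, with 43, 105 and 128 windows in NBPF20, 24, 62 and 71 in NBPF19 and 30, 61 and 66 in NBPF14. Their copies are nearly identical, so the split of reads among them is uncertain. Windows of such families and of pseudogenes made up 9.46% of WT, 10.8% of R62W and 13.2% of R101H deep intron windows. Without them, the shares of the lists were 18.8%, 4.78% and 3.46%.

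Targets of the p53 transcription factor, which the SV40 large T antigen binds, held more WT deep intron windows than the other 4 gene lists. Of 19 listed members, 12 had a deep intron window for WT, 10 for R62W and 10 for R101H, with 218, 68 and 58 windows. Over all 8692 genes in any list, the share with a deep intron window was 6.19%, 13.4% and 12.0%. The p53 list was chosen with earlier results of these data known, so its count is not independent evidence. MIR34AHG, the host transcript of miR-34a, held 111 of the 218 WT windows and 11 of the windows in each substitution list. All 111 lay in 1 intron, spread with gaps over 29071 bases from the first window to the last. The longest run among them held 12 adjoining windows. CDKN1A, the cell cycle inhibitor p21, had 37, 22 and 12. BBC3, the apoptosis activator PUMA, had 30, 18 and 12, and FDXR, ferredoxin reductase, had 16, 3 and 8. MDM2, the ubiquitin ligase of p53, had 6 in each list.

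The longest WT run lay in CDKN1A, where 18 adjoining windows covered positions 36679440 to 36681220 of chromosome 6. Their median log2 odds ratio was 3.66 for WT, on 2101 IP and 135 input counts in all. Of the 18, R62W listed 15 at a median of 2.41 and R101H listed 7 at a median of 2.61. In ATP6V0C, a subunit of the vacuolar proton pump, 13 adjoining windows were listed for WT (median 3.19), 13 for R62W (2.97) and 4 for R101H (2.42). In CAPN15 the longest R62W run held 19 windows at a median of 2.40, of which WT listed 12 at 1.79 and R101H listed 18 at 2.47. A run in PHF12 of 8 windows was listed with R62W (median 1.89) and R101H (2.27) and had no WT window. ATP6V0C and PHF12 were chosen for their runs after the values were seen.

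The other gene lists lay on both sides of the share over all listed genes, which was 6.19% for WT, 13.4% for R62W and 12.0% for R101H. Of 46 listed splicing regulators known for retained introns or poison exons, 4 (8.70%) had a deep intron window for WT, 15 (32.6%) for R62W and 10 (21.7%) for R101H, with 25, 72 and 32 windows. Most of these windows were in U2AF2, the large subunit of the factor that recognises the polypyrimidine tract, with 9, 32 and 11, and in PTBP1, which also binds polypyrimidine RNA, with 13, 15 and 6. Of 20 microRNA hosts, 5 (25%), 7 (35%) and 6 (30%) had one, with 151, 28 and 19 windows, and MIR34AHG and DNM2 held 148 of the 151. Of 81 ribosomal protein genes, 2 (2.47%), 5 (6.17%) and 4 (4.94%) had one, RPS19 itself having 4, 2 and 0 windows. Of 39 snoRNA host genes, 1 (2.56%), 5 (12.8%) and 3 (7.69%) had one. These lists too were chosen with earlier results known, and their shares carry no test.

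Few deep intron windows covered a small gene inside the intron. RefSeq genes of at most 2000 bases on the same strand overlapped 49 WT windows (1.62%), 136 R62W windows (3.03%) and 82 R101H windows (2.27%), and pseudogenes were the largest class in each. A microRNA hairpin was overlapped by 4 of the 7879 windows, and 94 windows lay within 1000 bases of 29 hairpins. The window of MIR222HG at chrX:45746965-45747064 covered the whole 21-base mature miR-222-3p. The nearest of the 111 MIR34AHG windows to the miR-34a hairpin lay 559 bases away. The mature microRNAs of these 2 hosts are shown because of that contrast, with the seed (bases 2 to 8) in capitals, from RefSeq.
hsa-miR-222-3p: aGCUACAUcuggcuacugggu
hsa-miR-221-3p: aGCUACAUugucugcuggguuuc
hsa-miR-34a-5p: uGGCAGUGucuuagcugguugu

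miR-221-3p and miR-222-3p share their seed and their host. At the miR-222 window the R62W replicates stood at 3.48, 3.74 and 6.72 and the R101H replicates at 2.79 and 6.92. For WT 2 replicates passed, at 2.31 and 3.03. The lowest R101H value thus fell inside the WT range, and the 99, 68 and 28 IP counts of R62W, R101H and WT came with 5, 2 and 5 input counts. MIR222HG was named after its values were seen.

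A few windows had very high odds ratios in every list. In PRKCA, protein kinase C alpha, the WT replicates stood at 7.99, 9.31 and 10.11, the R62W replicates at 8.71, 9.87 and 12.31 and the R101H replicates at 8.95 and 10.66. In ETV5, an ETS transcription factor gene, they stood at 8.19, 8.56 and 9.53, at 9.45, 9.51 and 11.08, and at 7.98 and 9.88. In KRT19, a keratin gene, they stood at 7.52, 8.14 and 8.82, at 8.64, 8.69 and 10.46, and at 7.41 and 9.40. The groups overlapped in PRKCA and ETV5, and in KRT19 the R101H range held all 3 WT values and 2 of the 3 R62W values. Input counts in these 3 windows were 0 or 1 in each list, so the ratios have no firm upper value. Windows of WWP2, PSTPIP2 and NELL2 were also among the 10 leading genes by level in all 3 lists, with WT means of 6.63, 6.54 and 6.22. NFIA reached 6.05, 7.15 and 6.31 by group mean on 9, 9 and 5 input counts, and AFF2 reached 5.71, 7.06 and 5.76 on input counts of 0.

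The 3 adjoining windows of SNX6, a sorting nexin gene, differed in which form of RPS19 was high. At 34568910 to 34569008 of chromosome 14 the WT replicates stood at 3.35, 4.24 and 4.55, R62W at 7.93, 8.25 and 8.27 and R101H at 3.08 and 4.14. All 3 R62W values lay above the other 5, and the pooled IP counts were 24980 for R62W, 1436 for WT and 937 for R101H on 49, 48 and 34 input counts. At the next window, 34568811 to 34568909, WT stood at 2.00, 2.06 and 4.22, R62W at 1.96, 2.56 and 5.44 and R101H at 5.44 and 8.81. There R101H was the highest by mean, and the highest R62W value lay just under the lower of R101H. At 34569009 to 34569107 WT stood at 4.58, 6.67 and 8.49, R62W at 6.45, 6.91 and 9.33 and R101H at 5.16 and 5.57, and the groups overlapped.

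**Figure D4:**
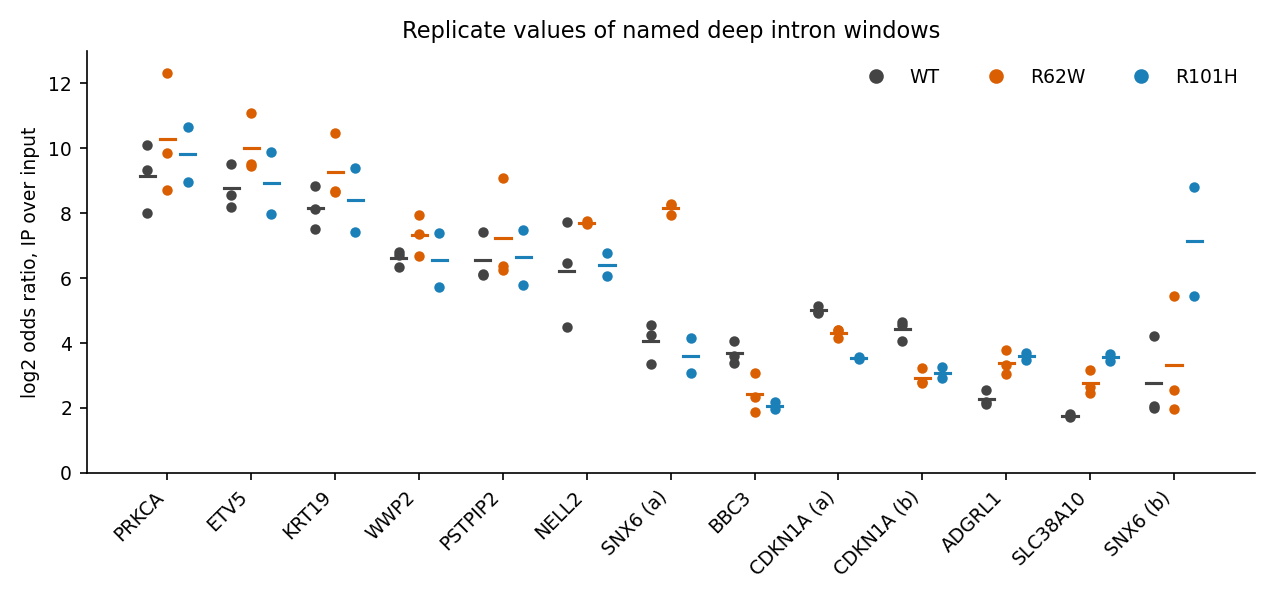
Log2 odds ratio of IP over input in each passing replicate (points) with the mean (bars) for deep intron windows with the highest levels in all 3 lists, and for windows of SNX6, BBC3, CDKN1A, ADGRL1 and SLC38A10 with a called difference; SNX6 (a) starts at 34568910 and SNX6 (b) at 34568811, CDKN1A (a) at 36680132 and CDKN1A (b) at 36681518. The 3 R62W points of SNX6 (a), from 7.93 to 8.27, lie above those of WT and R101H, and the R101H points of CDKN1A (a), 3.51 and 3.58, lie below the WT points.

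Differences between groups were tested at windows listed for both, with limma on the unlabelled replicate values that the lowest, mean and highest deposited log2 odds ratio fix. Both comparisons with WT share the WT samples, which ties the 2 results together. For R62W against WT, 1192 deep intron windows were shared and none passed at an adjusted p of 0.05, and the share called over all 12263 shared windows was 0%. At an unadjusted p under 0.05, 48 were higher in R62W (4.03%, where the share over all windows was 9.66%) and 37 lower (3.10%, against 0.546%). The median difference of log2 odds ratio was -0.14 in deep introns, 0.26 over all shared windows and 0.33 over coding windows. R62W was higher in 40.0% of deep intron windows and 72.4% of all windows. The deep intron median lay 0.40 below that of all windows, and the median of splice-near intron windows, at -0.06, lay 0.33 below it.

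For R101H against WT, 761 deep intron windows were shared, and again none passed, where 0% of all 11082 shared windows were called. At an unadjusted p under 0.05, 68 were higher in R101H (8.94%, against 20.6% of all windows) and 31 lower (4.07%, against 0.722%). The median difference was 0.00 in deep introns, 0.60 over all windows and 0.63 over coding windows. The deep intron median lay 0.60 below that of all windows, and that of splice-near intron windows, at 0.05, lay 0.56 below it. For R101H against R62W, none of 1930 shared deep intron windows passed, where 0% of all 59874 were called, and 24 were higher (1.24%, against 1.64% of all windows) and 19 lower (0.984%, against 0.159%) at an unadjusted p under 0.05. Their median difference was 0.08, against 0.21 over all windows. Among windows enriched in every replicate of both, the lowest unadjusted p-values belonged to SNX6 at 34568910 (-4.54, SE 0.41), PRKACB (-2.50, SE 0.57) and PDGFC (-1.999, SE 0.47) for lower, and to NBPF14 (2.69, SE 0.68), RP11-345J4.11 (1.34, SE 0.35) and NBPF20 (1.94, SE 0.57) for higher. Their limma adjusted p-values ran from 0.584 to 0.940.

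**Figure D5:**
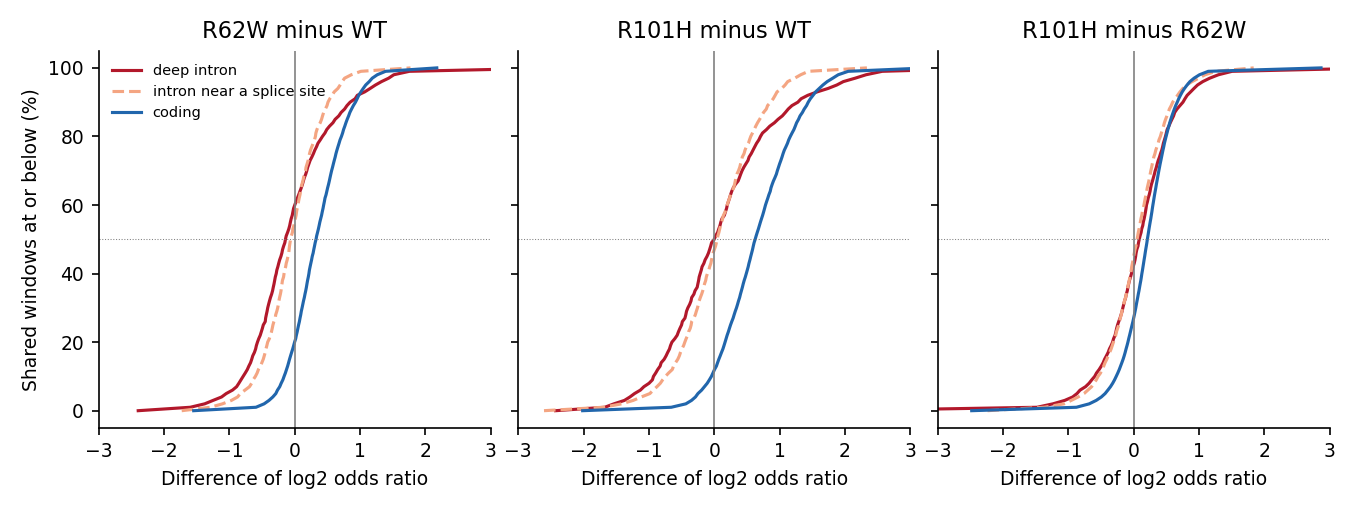
Cumulative distribution of the difference of log2 odds ratio between groups at windows listed for both, for deep intron windows, intron windows near a splice site and coding windows; the vertical axis is the percent of shared windows at or below a difference. In both comparisons with WT the deep intron curve crosses 50% near 0 (medians -0.14 and 0.00) while the coding curve crosses at 0.33 and 0.63.

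Calls appeared when the fit was restricted to windows that passed in every replicate of the pair. For R62W against WT, 301 deep intron windows remained in the fit and 1 was called, where 0.0374% of all 2672 windows were called higher. It was the SNX6 window at 34568910, higher by 4.11 (SE 0.37, limma adjusted p = 0.024, 3 replicates each). Over all shared windows with a trended variance its SE was 0.65 (limma adjusted p = 0.514). With the differences centred on the median of all windows it was higher by 3.54 at an adjusted p of 0.065, and none of the 301 was called. The median of the 301 was 0.08, against 0.57 over all windows, so the sign of the deep intron median turned while its place below all windows did not. Without multicopy families and pseudogenes it was -0.09 over 238 windows.

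For R101H against WT, 10 of 320 windows were called higher (3.13%, where the share over all 2730 windows was 17.8%) and 4 lower (1.25%, against 0.403%). Of the 10 higher windows, 7 were in NBPF genes. The others were in SNX6 at 34568811 (4.37, SE 1.13, limma adjusted p = 0.049), SLC38A10 (1.79, SE 0.29, adjusted p = 0.046) and ADGRL1 (1.31, SE 0.32, adjusted p = 0.047). The 4 lower windows were in PI4KAP1, BBC3 and CDKN1A, the last with 2. Without multicopy families and pseudogenes, 3 of 251 were called higher and 4 lower. With the differences centred on the median of all windows, none of the 320 was called in either direction, the lowest limma adjusted p being 0.126. The 4 lower windows then stood further from 0, PI4KAP1 at -2.67, BBC3 at -2.51 and CDKN1A at -2.37 and -2.24, with SEs as before and limma adjusted p = 0.126 each. Of the 320 centred differences, 8 were higher (all windows 4.58%) and 102 lower (all windows 11.7%) at an unadjusted p under 0.05.

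The called windows of CDKN1A and BBC3 had WT values that did not overlap those of R101H. At 36680132 in CDKN1A, WT stood at 4.93, 4.95 and 5.14, R62W at 4.14, 4.41 and 4.41 and R101H at 3.51 and 3.58, on 165, 96 and 34 IP counts and 3, 3 and 2 input counts. The 3 forms did not overlap there, WT being highest and R101H lowest. The difference of R101H from WT was -1.46 (SE 0.30, limma adjusted p = 0.046). In the fit of all shared windows its SE was 0.33, and 0.93 with a trended variance (limma adjusted p = 0.162 and 0.348). At the BBC3 window, WT stood at 3.38, 3.60 and 4.06, R62W at 1.87, 2.34 and 3.08 and R101H at 1.95 and 2.20. The difference for R101H was -1.60 (SE 0.35, limma adjusted p = 0.046). Over all shared windows its SE was 0.37, and 0.66 with a trended variance (limma adjusted p = 0.162 and 0.192). At the SLC38A10 window the order was the opposite, with WT at 1.73, 1.76 and 1.80, R62W at 2.47, 2.64 and 3.15 and R101H at 3.45 and 3.66. These windows were chosen by the test, and each rests on 2 R101H replicates.

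Summed input counts were lower for R101H, which has 2 IP replicates where WT and R62W have 3. At the deep intron windows enriched in every replicate, the summed input count for R62W was 1.00 times that for WT, and it was identical in 218 of 301 windows. For R101H it was 0.663 times that for WT and 0.664 times that for R62W. The counts are sums over replicates, so these ratios are not per replicate. The labels do not say which inputs entered each list, and the part of the input in these differences was not tested. The inputs came from cells that received no plasmid, so the ratios do not correct for RNA amounts that differ between the forms. Differences in crosslinking and in RNA amount cannot be told apart here. Among windows with at least 10 input counts in both lists, the deep intron medians were 0.10 for R62W against WT (242 windows) and 0.21 for R101H against WT (147 windows), below the 0.35 and 0.67 of all windows.

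In some genes the shared windows were nearly uniform in direction, and in others they were mixed. Over all shared windows of every class, R62W was higher than WT in 72.4% (median 0.26) and R101H in 82.5% (median 0.60). In CDKN1A, 22 of 22 shared windows were lower in R62W than in WT (median -0.75) and 12 of 12 were lower in R101H (median -1.13). In LMNA, 22 of 23 were lower in R62W (median -0.84), in CSNK1E 30 of 31 (-0.41), in REXO1 27 of 29 (-0.55) and in GSE1 18 of 19 (-0.65). In CAPN15, 27 of 29 were higher in R62W (median 0.39) and 24 of 28 in R101H (0.62), the latter near the values over all windows. In NBPF20, 36 of 43 were higher in R62W (0.80) and 37 of 43 in R101H (1.53). Mixed genes for R62W against WT were ADGRL1, with 7 higher and 6 lower, HIC2, with 7 and 11, and AGAP3, with 4 and 8. Windows of a gene share a transcript and are not replicates, so these counts describe the genes and carry no test. Over the p53 targets, 7 of 60 shared deep intron windows were higher in R62W than in WT (median -0.64) and 6 of 47 in R101H (-0.68), beside 477 of 1192 and 382 of 761 over all shared deep intron windows.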

How the data were processed

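Crosslinked RNA was measured by eCLIP in 8 IP and 3 input libraries of HEK293T cells. Per the submitters' processing notes, fastp, STAR and the build GRCh38 were used, without versions, and no window caller is named there. For each IP group the authors deposited a window table that pools its replicates. Per the file headers, IP and input values are deposited counts, summed by the authors over replicates. The authors deposited enrichment as a log2 odds ratio (lowest, mean and highest over passing replicates), per the file headers. The authors deposited p-values and q-values of their enrichment test as the highest and lowest over replicates, per the file headers, with no q-value above 0.2. The share of G and C is a deposited fraction, per the file headers. Gene names, feature classes and numbers of passing replicates are deposited labels. Library totals are not used here, so depth is known only from the counts in listed windows.

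Members are windows whose top feature class is INTRON. The members, gene lists and rules were chosen with earlier results of these data known. For 3 passing replicates the middle value is 3 times the mean less the lowest and highest; with 2 the lowest and highest are the values. limma 3.58.1 (R 4.3.3, lmFit, eBayes, Benjamini-Hochberg over all shared windows, called at 0.05) was also run on simulated normal values. These copied the missing values but not the selection of passing replicates and listed windows, so that selection was not checked. Intervals are exact (SciPy 1.17.1). Genes were named as the 10 with most windows and the 10 with the highest window in each list, the 10 with most WT-alone windows and the 10 with most windows in both substitution lists without WT, the 5 highest and 5 lowest called differences, and members of the gene lists. RefSeq (GRCh38.p14) gave gene bounds by symbol and chromosome, promoters and microRNAs, with chromosome 8 left out of the sequences. The planned count of sequence words over all windows was not run, since no genome was given. Alternatives were a q-value of at most 0.05, windows enriched in every replicate, lists of equal length, 1 window per gene, splice-near windows counted as intron, at least 10 input counts, centring and a trended variance, and, chosen after seeing the data, leaving out multicopy families and pseudogenes, and every-replicate windows with centring or without those families.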

Additional observations from a re-analysis of the deposited data

How the results depend on the processing

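The share of deep introns was higher for WT than for either substitution under each alternative. The WT, R62W and R101H numbers (and shares) were 604, 932 (4.12%) and 1158 (2.68%) at a q-value of at most 0.05; 875 (24.9%), 1438 (3.73%) and 3609 in every replicate; 370 (11.4%), 483 (6.22%) and 369 (4.55%) with 1 window per gene; 4838 (31.4%), 11676 (13.5%) and 10010 (10.7%) with splice-near windows; and 514 (6.15%), 1147 (2.21%) and 854 (1.63%) with at least 10 input counts. Cut to the length of the WT list by q-value, R62W held 625 (4.06%) and R101H 373 (2.42%). Without multicopy families and pseudogenes the shares were 18.8%, 4.78% and 3.46%. The share of WT deep introns also in R62W was 34.4% in every replicate, 30.3% by q-value and 37.4% without those families; in R101H it was 36.6% in every replicate and 22.6% without those families; R62W in R101H was 72.4%, 52.5% and 39.4%. Medians with at least 10 input counts were 1.85, 1.69 and 1.59. limma called 1 window for R62W against WT in every-replicate windows, with at least 10 input counts and in every-replicate windows without those families (1 each); for R101H against WT it called 14, 2 and 7, and centring moved that median to -0.60, or -0.98 in every-replicate windows. With a trended variance over all shared windows, limma called no deep intron window in any pair, as in the main fit. The rank of lists by number changed: R101H led by q-value and in every replicate, and WT led in lists of equal length. Neither R101H lead is a like comparison. Its 2 replicates keep all its windows, and its highest q-value is taken over 2 replicates where the other groups have up to 3. The cause was not tested.

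No paired analysis was possible because the deposited values carry no replicate numbers. For the same reason no run without a replicate was made. Low input counts (median 4 to 5) limit single windows, and 1 list per group leaves counts and shares without a replicate check.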
